A study of Drosophila melanogaster with 2 samples.

Results

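The genes period (per) and timeless (tim) are the repressor genes of the Drosophila clock, and this account describes every region recovered with the transcription factor Clock (Clk) at them. Regions were taken by position: any region of the deposited dm6 lists whose summit lay in per or tim or within 1 kb of either gene. This gave 50 of 92464 list entries. They were 3 of 2464 entries in the reproducible list, which holds the regions that passed the authors' irreproducible discovery rate (IDR) threshold, 16 of 30000 candidates called on both replicates pooled, 18 of 30000 candidates of replicate 1 and 13 of 30000 candidates of replicate 2. The same site can appear in all 4 lists, so the entries are not independent.

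The data are chromatin immunoprecipitation sequencing (ChIP-seq) of whole adult male flies of the Clk-GFP line, which carries a transgene for Clk with green fluorescent protein at its C-terminus. Sonicated chromatin was recovered with anti-GFP antibody according to the sample description, whereas the antibody field of the labels gives Clk. There was 1 group of 2 biological replicates, so no comparison between conditions exists and all comparisons are with other regions, other genes or the other replicate. Fly age was labelled unknown, the labels give no time of day, and read depth per region is unknown because the lists hold signal values and no read counts. The labels do not say which promoter drives or which cells express the transgene or whether the endogenous Clk gene was intact, and signal from whole flies does not separate clock cells from other cells.

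In the textbook clock, Clk and its partner Cycle bind E-boxes, short sequences of the form CACGTG, and activate per and tim. The Per and Tim proteins accumulate, enter the nucleus together and repress Clk and Cycle, which closes the loop. Light triggers the breakdown of Tim through cryptochrome. An enhancer upstream of per that holds an E-box, and an E-box with E-box-like neighbours (CACGTT) in the tim promoter, are known from earlier work on these genes.

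The sequences under the strongest peak of each gene are shown because they hold both kinds of motif. In each line below, letters are in capitals where they match CACGTG or CACGTT on either strand (AACGTG is CACGTT read from the other strand), and each line runs 5′ to 3′ along the gene's own strand in the RefSeq Release 6 assembly, which has dm6 coordinates. The per line reaches 100 bp to each side of the summit, chrX:2684983-2685183 on the plus strand. The tim lines cover its E-box with the adjacent pair of E-box-like copies (chr2L:3507416-3507445, minus strand) and the E-box-like copy on the other side of the summit (chr2L:3507299-3507324, minus strand).
per upstream peak: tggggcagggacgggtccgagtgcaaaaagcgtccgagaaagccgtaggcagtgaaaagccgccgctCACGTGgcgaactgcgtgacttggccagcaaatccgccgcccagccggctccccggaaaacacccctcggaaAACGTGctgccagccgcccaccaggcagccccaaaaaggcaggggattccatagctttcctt
tim promoter peak, E-box cluster: aAACGTGcggCACGTTgtgattaCACGTGa
tim promoter peak, other side: ccggcagcggCACGTTggccctgtgt

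The per gene (FBgn0003068, chromosome X, 2685580 to 2692780, plus strand, 7201 bp) has 2 annotated transcripts that share 1 start site. Its single reproducible peak lay upstream of the gene, at 2684896 to 2685228 with the summit at 2685083, 497 bp from the start site. The authors' signal value there was 281 in the pooled and reproducible lists, 167 in replicate 1 and 113 in replicate 2. Signal scales differ between lists, so each value was divided by the median of its list: the per peak stood at 11.0 times the median of the pooled candidates, 9.53 times that of replicate 1 and 9.42 times that of replicate 2. It ranked 188 of 2464 reproducible peaks, 217 of 30000 in replicate 1 and 160 of 30000 in replicate 2. Both replicates placed it near the top of their candidates, with 0.720% of them ranked above it in replicate 1 and 0.530% in replicate 2.

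The tim gene (FBgn0014396, chromosome 2L, 3493986 to 3508119, minus strand, 14134 bp) has 10 annotated transcripts from 3 start sites, at 3507218 for 6 transcripts, at 3507604 for 1 and at 3508119 for 3. Its strongest peak spanned 3507188 to 3507573 with the summit at 3507368. That summit lay 150 bp upstream of the start site used by most tim transcripts, 236 bp downstream of the next and 751 bp downstream of the outermost, so it falls in a 5′ UTR exon of tim-RO, in an intron of 3 other transcripts and outside the remaining 6. The signal was 482 in the pooled and reproducible lists, 268 in replicate 1 and 217 in replicate 2. These were 18.9, 15.3 and 18.1 times the median of the pooled, replicate 1 and replicate 2 candidates. Its ranks were 53, 82 and 33. The tim peak was stronger than the per peak in every list.

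A peak at or near a gene is common in these lists, while ranks this high are not. Of 13968 protein-coding genes, 20.0% had a reproducible summit in the gene or within 1 kb of it (95% exact binomial interval 19.3 to 20.7). The share was 14.6% for genes on X and 20.1% for genes on 2L, and longer genes had one more often. Among genes between 0.5 and 2 times the length of per it was 28.5%, and among genes between 0.5 and 2 times the length of tim it was 32.6%. For the best rank per gene, 2.01% of protein-coding genes reached rank 188 or better in the reproducible list, the rank of per, and 0.566% reached rank 53 or better, the rank of tim. In replicate 1 the corresponding shares were 2.32% at the per rank and 0.866% at the tim rank. In replicate 2 they were 1.71% and 0.387%. No test was attached to the ranks of these 2 genes, which are known Clk targets.

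**Figure D1:**
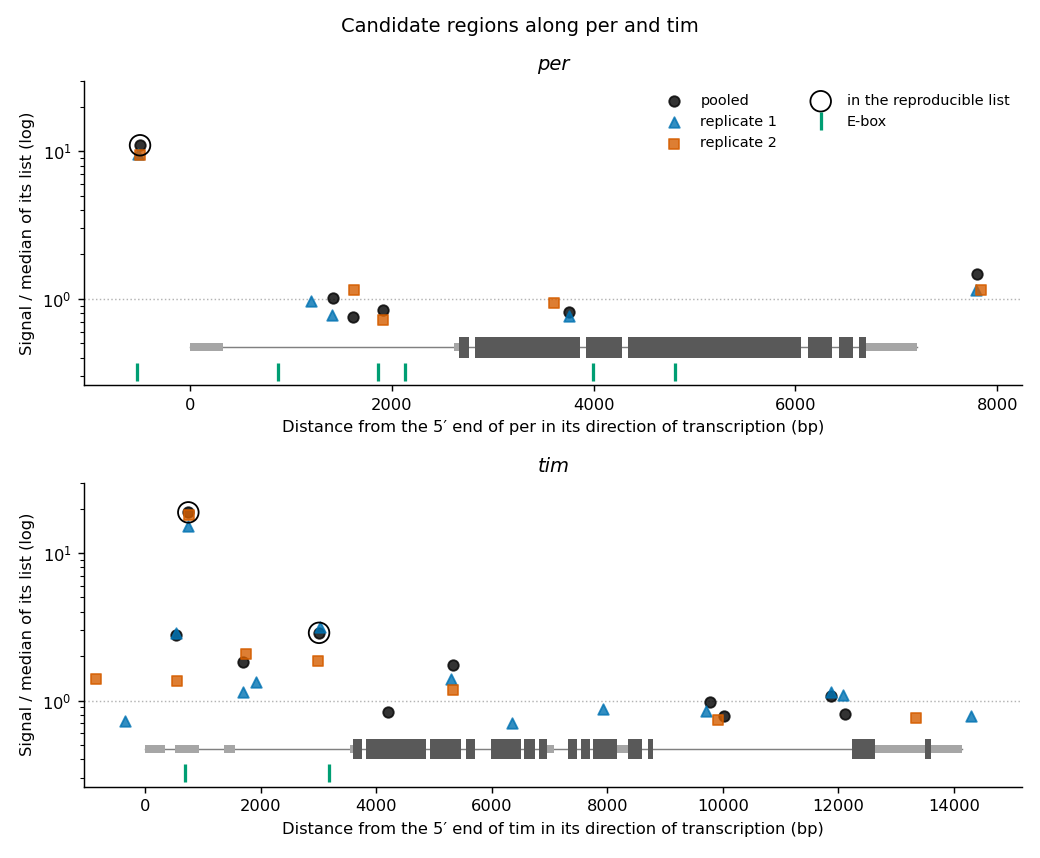
Signal of each candidate region along per (upper panel) and tim (lower panel), divided by the median signal of its own list, on a log axis against distance from the gene's 5′ end in bp; circles are pooled candidates, triangles replicate 1, squares replicate 2, open rings mark the reproducible peaks, grey boxes are exons (dark where coding) and green ticks are E-boxes. The dotted line is the list median: 1 site per gene, at 11.0 times the pooled median for per and 18.9 times for tim, stands above all the others.

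Among the 7 clock loop genes, tim had the second best and per the fourth best rank of the strongest peak. The reproducible list had a summit in or within 1 kb of 6 of the 7 genes per, tim, vri, Pdp1, Clk, cwo and cyc, and of 11 of 17 clock regulator genes. The share was 20.0% over all protein-coding genes, and 28.5% and 32.6% over those near per and tim in length. Both gene lists were chosen with earlier results of these data known, so the counts are a description. The vri gene, which encodes a bZIP repressor of Clk, had the best rank of the loop at 33, followed by tim at 53, Pdp1, which encodes a bZIP activator of Clk, at 98 and per at 188. Clk and cwo, a bHLH repressor gene, followed at 731 and 1534, and cyc, the gene of the Clk partner Cycle, had no reproducible peak. In replicate 1 the order of the first 4 was vri (36), tim (82), Pdp1 (114) and per (217), and in replicate 2 it was vri (26), tim (33), Pdp1 (71) and per (160). The order of these 4 genes was thus the same in both replicates, although single ranks of vri and tim in replicate 2 were only 7 places apart. The loop genes differ in length and in number of peaks: vri had 6 reproducible peaks over 22.3 kb and Pdp1 had 8 over 55.9 kb, where tim had 2 over 14.1 kb and per had 1 over 7.20 kb. At least 2 reproducible summits were found at 4.47% of protein-coding genes. Because males carry a single X, per is present in fewer copies than the autosomal tim, and the effect of copy number on the deposited signal was not tested.

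**Figure D2:**
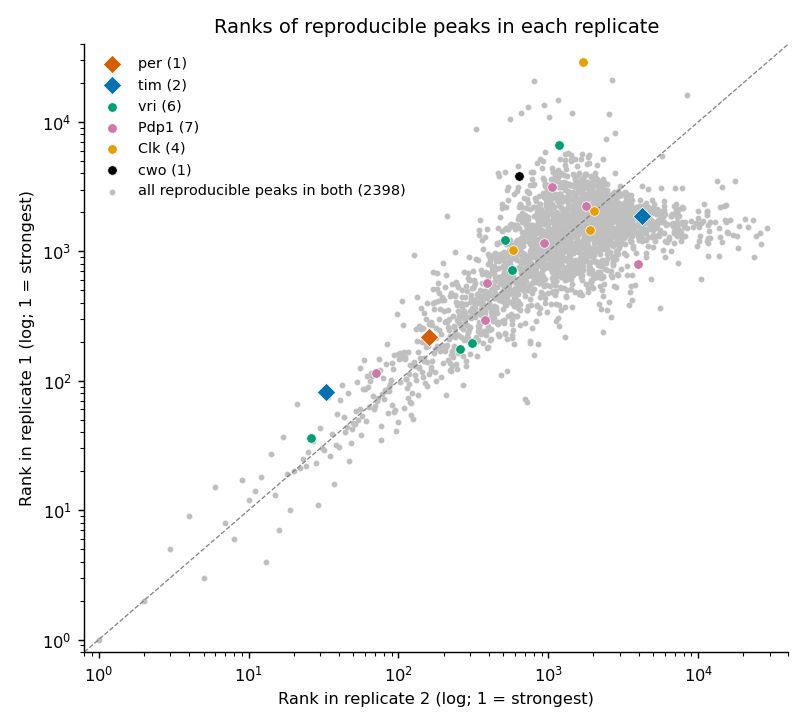
Rank of each reproducible peak in replicate 1 against its rank in replicate 2, on log axes with 1 as the strongest, for the 2398 peaks with a summit within 150 bp in both; diamonds are per and tim, coloured circles the other clock loop genes, and the dashed line marks equal ranks. The per peak and the stronger tim peak lie somewhat above the line, ranking higher in replicate 2, and the weaker tim peak lies below it, with rank 1887 in replicate 1 and 4198 in replicate 2.

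The replicate summits lay close together at both strong peaks, at per about as close as is usual for strong peaks. At tim the summits were 5 bp apart (3507368 in replicate 1 and 3507363 in replicate 2), and at per they were 23 bp apart (2685059 and 2685082). Over the 2398 reproducible peaks with a summit within 150 bp in both replicates, the median distance between replicate summits was 30 bp (quartiles 12 and 60), and 11.0% of them were closer together than at tim and 40.3% closer than at per. For those among the strongest 500 peaks the median was 22 bp.

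The balance between the replicates at both strong peaks was within 1 SD of the median over all shared peaks, but low among the strongest peaks. The ratio of replicate 1 to replicate 2 signal was 1.24 at the tim promoter peak and 1.48 at the per peak, against a median of 1.76 over shared reproducible peaks (quartiles 1.39 and 2.25). On the log2 scale the ratio of tim lay -0.51 from the median and that of per -0.25, within the standard deviation of 0.59 over all shared peaks. The per ratio lay below the lower quartile of peaks on X, whose median was 1.95 (quartiles 1.55 and 2.44). The tim ratio lay below the lower quartile of peaks on the other arms, whose median was 1.73 (quartiles 1.36 and 2.20). Of the strongest 500 peaks, 499 were found in both replicates, with a median ratio of 1.77 (quartiles 1.51 and 2.06). Both the per and the tim ratio lay below that lower quartile.

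The second reproducible peak of tim was weak and less even between replicates. It lay at 3504896 to 3505315 with the summit at 3505106, in an intron of all 10 transcripts and 2112 bp downstream of the start site at 3507218. Its signal was 73.5 in the reproducible list, whose lowest value was 72.4, and its rank there was 2412 of 2464. In replicate 1 it had a signal of 55.6 and rank 1887, and in replicate 2 a signal of 22.0 and rank 4198. The ratio of 2.52 was above that of 83.5% of shared peaks. Taking the strongest 2464 regions of 1 replicate, tim had 1 region with replicate 2 alone, the promoter peak, and 3 with replicate 1 alone. Among the per and tim regions, the nearest on the other side of the threshold was also at tim, though candidates elsewhere in the genome lay nearer to it. This pooled candidate at 3507481 to 3507639, with signal 71.3 and rank 2520, overlapped the promoter peak. Its summit at 3507578 was 26 bp inside the start site at 3507604, and it ranked 2192 in replicate 1 and 7810 in replicate 2. The deposited q-value was 0.00104 for the entry inside the list and 9.92e-04 for the one outside, so the order by signal was not that by q-value.

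The other candidates were much weaker than the strongest peak of each gene. At per the other 5 pooled candidates had signals of 19.1 to 37.5, against a list median of 25.5, and the strong peak was 7.48 times the next. At tim the other 9 pooled candidates, the second reproducible peak included, ran from 20.1 to 73.5, and the promoter peak was 6.56 times the next. Of these 9, 5 lay above the list median, led by the second reproducible peak at 2.88 times and the candidate at 3507578 at 2.79 times the median; at per, 2 of 5 lay above it. A pooled candidate occurred in or within 1 kb of 72.8% of protein-coding genes, a replicate 1 candidate of 73.4% and a replicate 2 candidate of 72.4%, so the presence of weak candidates is not particular to these genes. At least 6 pooled candidates, the count at per, were found at 11.0% of genes, and at least 10, the count at tim, at 4.91%. By length this was 0.652 candidates per kb at per and 0.620 per kb at tim, against 0.218 per kb over the whole chromosome arms, Y and sequence between genes included. No density over genes alone was computed, so these values compare unlike sequence. Neighbouring candidates can also overlap, as those in the first intron of per do.

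Some weak candidates recurred in both replicates. Of the 6 pooled candidates at per, 3 had a summit within 150 bp in each replicate, and of the 10 at tim, 6 did, against 35.6% of all pooled candidates. The per count depended on the distance allowed: within 300 bp it was 5 of 6, while the tim count was again 6 of 10. Leaving out the reproducible peaks, 2 of 5 at per and 4 of 8 at tim recurred, against 30.1% of pooled candidates below the reproducible ones. The strongest recurring one at per lay past the 3′ end of the gene, at 2693376, and inside dyw (daywake), a gene on the opposite strand whose end overlaps that of per and which acts in daytime sleep. Its rank was 7311 in the pooled list, 11456 in replicate 1 and 11156 in replicate 2, and the nearest annotated start site was that of dyw, 510 bp away. At tim, a candidate at 3506415 in the same intron as the second reproducible peak, 803 bp downstream of the start site at 3507218, ranked 5024 in the pooled list, 11557 in replicate 1 and 3421 in replicate 2. Another in a coding exon, at 3502793, ranked 5474, 7704 and 10708. In per, 3 pooled candidates lay in the first intron, and none of them had a summit within 150 bp in both replicates. Recurrence was loose for 1 weak candidate of each gene: the replicate summits matched to the per candidate at 2689335 were 146 bp apart, and those matched to the tim candidate at 3498337 were 213 bp apart. Several tim candidates lay nearer to a start site of another gene within the interval than to one of tim: those at 3496005, 3496250, 3498105 and 3498337 to lncRNA:CR46495, and those at 3502793, 3503918 and 3505106 to snoRNA:Or-CD16. The other genes that overlap the tim interval, lncRNA:CR45299, CG31954 and asRNA:CR45300, lie upstream of tim, where the pooled list had no candidate within 1 kb. Replicate 1 had a candidate there at 3508457 (rank 27624), and replicate 2 a different one at 3508962 (rank 7423). In replicate 1, 1 of 5 candidates at per and 5 of 13 at tim had no pooled summit within 150 bp. In replicate 2 this held for 0 of 5 at per and 2 of 8 at tim.

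The reproducible peaks nearest to these genes were not close. The peak next to per on one side lay 18.8 kb away at Ugalt, a nucleotide sugar transporter gene, and ranked 3 in the list. On the other side it lay 38.6 kb away near a start site of sgg, the gene of the kinase that phosphorylates Tim, at rank 572. On one side of tim the next peak lay 25.3 kb away, 1308 bp from the start of the translation inhibitor gene Thor, at rank 2256. On the other side it lay 66.2 kb away at rank 567, with lncRNA:CR43822 as the nearest start.

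Both strong peaks held the E-box with an E-box-like copy beside it. At per the CACGTG copy lay at 2685050 to 2685055, 527.5 bp upstream of the start site, with its centre 30.5 bp from the pooled summit, 6.5 bp from that of replicate 1 and 29.5 bp from that of replicate 2. A CACGTT copy on the minus strand followed at 2685122 to 2685127, with 66 bases between. The summits thus lay between the 2 copies in all 3 lists. At tim the CACGTG copy lay at 3507417 to 3507422, 201.5 bp upstream of the start site at 3507218 and 51.5 bp from the summit, 51.5 bp in replicate 1 and 56.5 bp in replicate 2. A first CACGTT copy was 7 bases from it, at 3507430 to 3507435, and a second, in the other orientation, a further 3 bases on, at 3507439 to 3507444. The other copy lay across the summit at 3507309 to 3507314, 93.5 bp upstream of the start site, with 102 bases between it and the E-box.

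**Figure D3:**
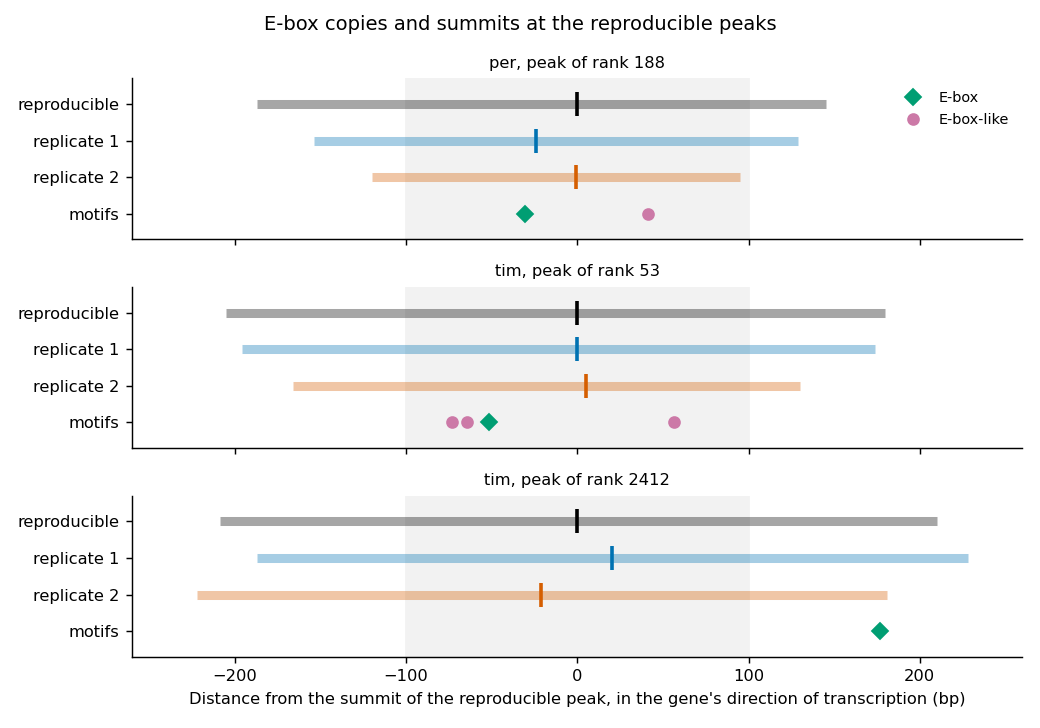
Extent and summit of the reproducible peaks of per and tim in 3 lists (bars, with a tick at each summit) and centres of E-boxes (diamonds) and E-box-like copies (circles), against distance in bp from the reproducible summit in the gene's direction of transcription; the shaded band reaches 100 bp to each side. The summits of both strong peaks sit between motif copies on either side, and the weaker tim peak has a single E-box near the edge of the region.

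Both strong peaks had both motifs within 100 bp of the summit, unlike most reproducible peaks. Within that distance CACGTG was present in 3.12% of the 2464 reproducible peaks and CACGTT in 6.62%. Within 50 bp of the pooled summit, per had both motifs and tim, whose nearest copy was 51.5 bp away, had neither. From the replicate 1 summit of per the CACGTT copy was 65.5 bp away, outside that distance. Of all reproducible peaks, 1.34% had CACGTG and 3.77% had CACGTT within 50 bp of the summit. The shares were similar in left and right flanking windows of the same width, at 1.22% and 1.06% for CACGTG and 3.69% and 3.17% for CACGTT. Of 300-base promoters, which reached 250 bases before to 50 after each of 19630 annotated start sites of protein-coding genes, 786 held CACGTG and 1903, or 9.69%, held CACGTT. The 201-base window of tim held 4 copies of the 2 motifs together, and it was the only 1 of the 2464 peaks with 4, or 0.0406%. With a window of 150 bp to each side it was again the only one. The per window held 2 copies, and 20 peaks, or 0.812%, had 2 or more. The general E-box pattern CANNTG, which contains CACGTG, had 1 match in each window, the CACGTG copy itself. Counted in the same way, with CACGTG included, 64.3% of reproducible peaks had at least 1 match. The GAGA factor motif GAGAG had 1 match at tim and 0 at per, and was present in 28.9% of reproducible peaks. The partial CREB site TGACGT was in neither window and in 5.56% of reproducible peaks. All were searched on both strands.

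The pairing of both motifs was also found at 3 peaks of other clock loop genes. Only 14 reproducible peaks, or 0.568%, held CACGTG and CACGTT together within 100 bp of the summit, and 5 of the 14 lay in or within 1 kb of per, tim, vri or Pdp1. Most loop gene peaks lacked the pair: it was in 5 of 22, namely 1 of 1 at per, 1 of 2 at tim, 1 of 6 at vri, 2 of 8 at Pdp1, 0 of 4 at Clk and 0 of 1 at cwo. The strongest vri peak, of rank 33, had no copy of either motif within 100 bp. Within 150 bp of its summit it held 3 copies of the 2 motifs together, so its lack of copies depended on the window. Of the 14 peaks with both motifs, 6 ranked 500 or better. Among these 6, 4 belonged to loop genes, and the other 2 had their nearest starts at the ribosomal protein gene RpL7 and at lncRNA:CR9162. The counts were made after the per and tim sequences had been seen, and CACGTT was searched because of the known tim promoter, so they are a description. The number of bases between the motifs differed: it was 7 at tim and in the Pdp1 peak of rank 98, 66 at per, 69 in the Pdp1 peak of rank 1172 and 74 in the vri peak of rank 213. In 3 of the 14 peaks the motifs were at most 10 bases apart. The Pdp1 pair with the same gap as tim (chr3L:7835243-7835267, minus strand) and the vri E-box (chr2L:5303342-5303367, plus strand) are shown along the genes' strands for comparison with those of per and tim, with matches in capitals.
Pdp1 peak of rank 98: gtgCACGTGgtagcgaAACGTGata
vri peak of rank 213: cattccacgaCACGTGaccgctccgc

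Not every E-box in these genes lay under a peak. The per interval held 6 CACGTG copies, of which the upstream copy was in the reproducible peak, 1 in the first intron (2687435 to 2687440) was in a weak pooled candidate of rank 21208 and 4 were in no pooled region. Those 4 were 2 intronic copies, 540.5 and 215.5 bp from the nearest pooled summit, and 2 copies in coding exons, 242.5 and 1047.5 bp away. The tim interval held 2 copies, and each lay in a reproducible peak. Of the CACGTT copies, 1 of 6 at per and 3 of 10 at tim were in a reproducible region. The E-box of the second tim peak lay 176.5 bp from its summit, near the edge of the region, and is shown here because no copy was nearer (chr2L:3504917-3504942, minus strand).
tim second peak, E-box: gctgtgcggaCACGTGtgtgaggtga
The 201-base window of that peak also held a run of 12 identical G bases on the minus strand. Of the 2464 reproducible peaks, 9 had a run of G or of C at least as long, itself included; this feature was picked out after the sequence was seen.

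The per and tim peaks were rich in G and C, unlike most of the list. In the 201-base window around the summit, G and C made up 63.2% at per, 60.7% at the tim promoter and 58.2% at the second tim peak. All reproducible peaks averaged 39.2% ± 8.39 (SD over 2464 peaks), and the values at per, the tim promoter and the second tim peak exceeded those of 99.6%, 99.1% and 97.9% of them. Among the 53 peaks ranked as high as tim or higher, tim had the highest value, and among the 188 ranked as high as per or higher, 1 other reached that of per. In windows of the same width centred 400 bp to each side, the share was 30.8% and 24.4% at the tim promoter peak and 30.8% and 34.3% at the second tim peak, so both tim peaks were richer than their flanks. At per the flanks were nearly as rich as the peak, at 61.7% and 56.2%. The 19 peaks of the other loop genes were also richer than their flanks on average, with a mean difference of 7.15 and a median difference of 11.2 percentage points. Not each of them was: single differences ran from -22.9 at a Pdp1 peak to 26.4 at a vri peak. Over all reproducible peaks the mean difference was -4.15 percentage points, in the opposite direction. The 19 peaks of the other loop genes had a median of 47.3% and a range of 19.9 to 64.7%. The strongest vri peak had 58.7%, the vri peak that held the E-box 64.7%, and the Pdp1 peak of rank 98 had 49.8%. Whether base composition affects the recovery of these regions was not tested.

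**Figure D4:**
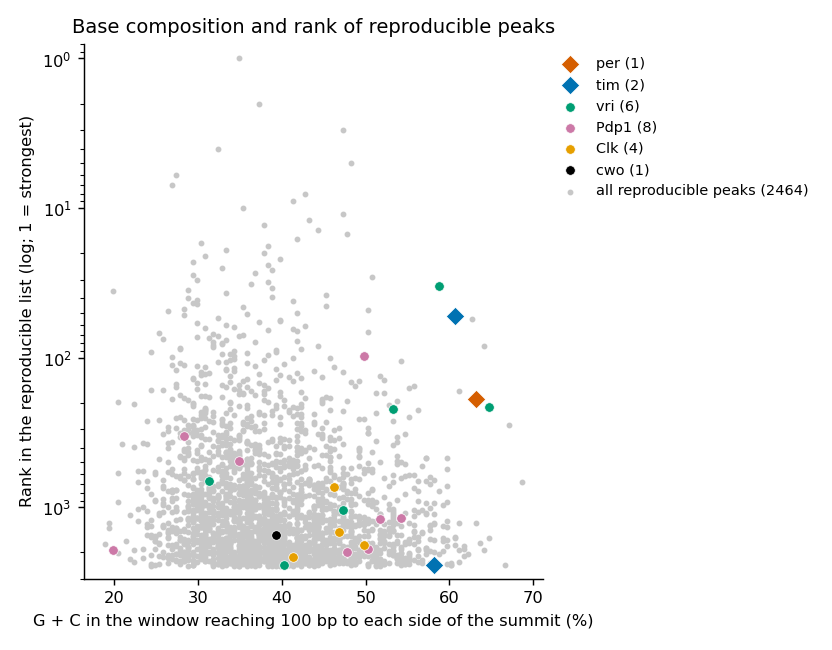
Share of G and C in the 201-base window at each summit, in percent, against rank in the reproducible list on a log axis with the strongest at the top; diamonds are per and tim, coloured circles the other clock loop genes and grey points all 2464 reproducible peaks. The per peak at 63.2% and the tim promoter peak at 60.7% lie to the right of nearly all peaks of similar rank.

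By ranks in the 2 replicates, the promoter peaks most like those of per and tim belonged to other kinds of genes. Likeness was the distance in log2 rank over the 2 replicates, among 1439 genes and transcripts with a reproducible summit within 500 bp of a start site and within 150 bp of a summit in each replicate. The nearest to per were CG13631 (ranks 233 in replicate 1 and 162 in replicate 2, distance 0.10), lncRNA:CR44149 (213 and 177, distance 0.15) and lawc (198 and 151, distance 0.16). The nearest to tim were Gs2, which encodes a glutamine synthetase (71 and 41, distance 0.38), nebu (80 and 46, distance 0.48) and asRNA:CR43257 (55 and 39, distance 0.62). With 2 replicates, likeness of this kind says only that the peaks were similarly strong.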

How the data were processed

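The authors called regions in each replicate and in both pooled, against a control, and made the IDR-thresholded list from these, per the file headers of the notes. Which caller and aligner were used, and at what IDR threshold, is not given in the sources used here. The deposited signal values have a scale of their own in each list, and the deposited −log10 q-values were used only to describe regions; the summit offset was read as the format defines it. The dm3 lists were not used here. Read depth is unknown. Replicate numbers are those of the labels.

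Genes were from Ensembl release 115 and sequence from the RefSeq Release 6 assembly, both in dm6 coordinates. Regions were assigned by summit with 1000 bp on each side of a gene, and summits within 150 bp counted as shared. Exact binomial (Clopper-Pearson) intervals at 95% cover counting error over genes or peaks only. No p-value was computed. The members, the gene lists and the motifs were chosen with earlier results of these data known. Named genes were per, tim, their overlapping and neighbouring genes, the clock loop genes and the 3 genes nearest in rank to each member, by log2 rank in both replicates; RpL7 and lncRNA:CR9162 were named after their values were seen, as a count of few. Alternatives changed the interval, overlap rule, threshold, replicate, shared distance and motif window; the window for both motifs together was added after seeing the data. Region assignment and motif search were tested on simulated data. Python 3.11.15, NumPy 2.4.6, pandas 2.3.3, SciPy 1.17.1 and matplotlib 3.10.9 were used.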

Additional observations from a re-analysis of the deposited data

How the results depend on the processing

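Of 85 alternative values for 19 results, 68 stayed close to the main value and 17 moved. Close meant within 1.5 times for a count, within 1 SD for a rank or ratio, and within the 95% exact binomial interval for the share of genes. The SD for a rank was that of the 2 replicate ranks, which were also the alternatives. For a ratio it was that over all shared peaks, and only the reference median was changed. The rank and ratio values could thus hardly have moved, and their closeness says little. Where no construction is named, the cause was not tested. With no margin around the genes, per had 0 reproducible regions, since its peak is upstream, and 3 candidates in each of replicate 1 and replicate 2; with 500 bp it had 3 in replicate 1. With summits within 300 bp as shared, 5 pooled candidates at per recurred. The E-box at per was not within 25 bp of the summit (0 copies). For tim, the strongest 1232 peaks of the list held 1 region. Leaving out a replicate gave 1 to 3 reproducible regions at tim (1 without replicate 1, 3 without replicate 2) and 1 at per each time; ranks then ran from 33 to 82 for tim and from 160 to 217 for per. The E-box copy at tim was counted within 100 bp, within 150 bp and in the whole region (1 each) but not within 50 bp, where no copy of either motif was found (0). The window for both motifs was chosen after seeing the data. The share of genes with a reproducible summit was 13.2% over all annotated genes, 18.0%, 24.3% and 34.6% with 500, 2000 and 5000 bp on each side, and 11.7% for the strongest 1232 peaks. No paired analysis was possible because there is 1 group. Each candidate list stops at 30000 regions, so weaker ones were not seen.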
